A study of Caenorhabditis elegans with 12 samples.

Results

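The genes described here are 10 components of the unfolded protein response of the endoplasmic reticulum (ER) in Caenorhabditis elegans: the stress sensors ire-1, pek-1 and atf-6, the transcription factor gene xbp-1, and the chaperones and folding enzymes hsp-3, hsp-4, enpl-1, crt-1, pdi-1 and pdi-2. They were found by gene symbol in the probe annotation of the Affymetrix array, which gave 17 probe sets for the 10 genes out of 20766 probe sets with a single gene name, for 17118 genes. All 10 genes passed the filter on low signal and were among the 10385 genes tested. Total RNA of whole worms, harvested at the last larval stage (L4) from liquid cultures synchronised by bleaching, was hybridised to 12 arrays in 4 groups of 3 biological replicates. The groups were wild type on control RNAi, wild type on spg-7 RNAi, the mutant atfs-1(tm4525) on control RNAi and the mutant on spg-7 RNAi, all in the N2 background and fed bacteria for RNAi. The product of atfs-1 is a transcription factor that drives the unfolded protein response of mitochondria. The product of spg-7 is a mitochondrial protease, and its knockdown is widely used as a mitochondrial stress. The comparisons asked how ER stress genes stood under a mitochondrial stress, and whether that depended on atfs-1. Whole worms mix all tissues, so fewer cells of a type and less RNA per cell cannot be told apart.

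When unfolded proteins build up in the ER, 3 membrane sensors signal to the rest of the cell. IRE-1 splices the xbp-1 mRNA so that it encodes an active transcription factor, PEK-1 (the worm PERK) slows translation by phosphorylating the initiation factor eIF2 alpha, and ATF-6 is known from mammals to be cleaved and to act on transcription. The target genes encode ER chaperones such as the BiP homologues HSP-3 and HSP-4, and hsp-4 is the usual reporter gene of this response in worms. Splicing of xbp-1 was not read here, since a probe set gives 1 summed signal for a transcript.

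On spg-7 RNAi, the sensor gene pek-1 rose 2.48-fold over both genotypes together, and the other 9 genes did not pass the test in any comparison. A count of 1 in 10 is close to the share of all genes called there, 7.13%, and the pek-1 call was lost in 7 of 12 fits with 1 array left out, with adjusted p values up to 0.0866. The signals of ire-1 lay above every control array in both genotypes, and those of xbp-1 did so on its dimmer probe set, each with increases that missed the threshold. None of the chaperone and folding enzyme genes was called. The gene hsp-4 had the same mean log2 signal on both RNAi treatments in wild type and lower signals on spg-7 RNAi in the mutant, short of the threshold. On its dimmer probe set pdi-2 lay above every control array in the mutant, also short of the threshold. A call means a Benjamini-Hochberg adjusted p under 0.05 from limma over the 10385 genes, and a difference is in log2 signal, spg-7 RNAi minus control RNAi unless stated otherwise.

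**Figure D1:**
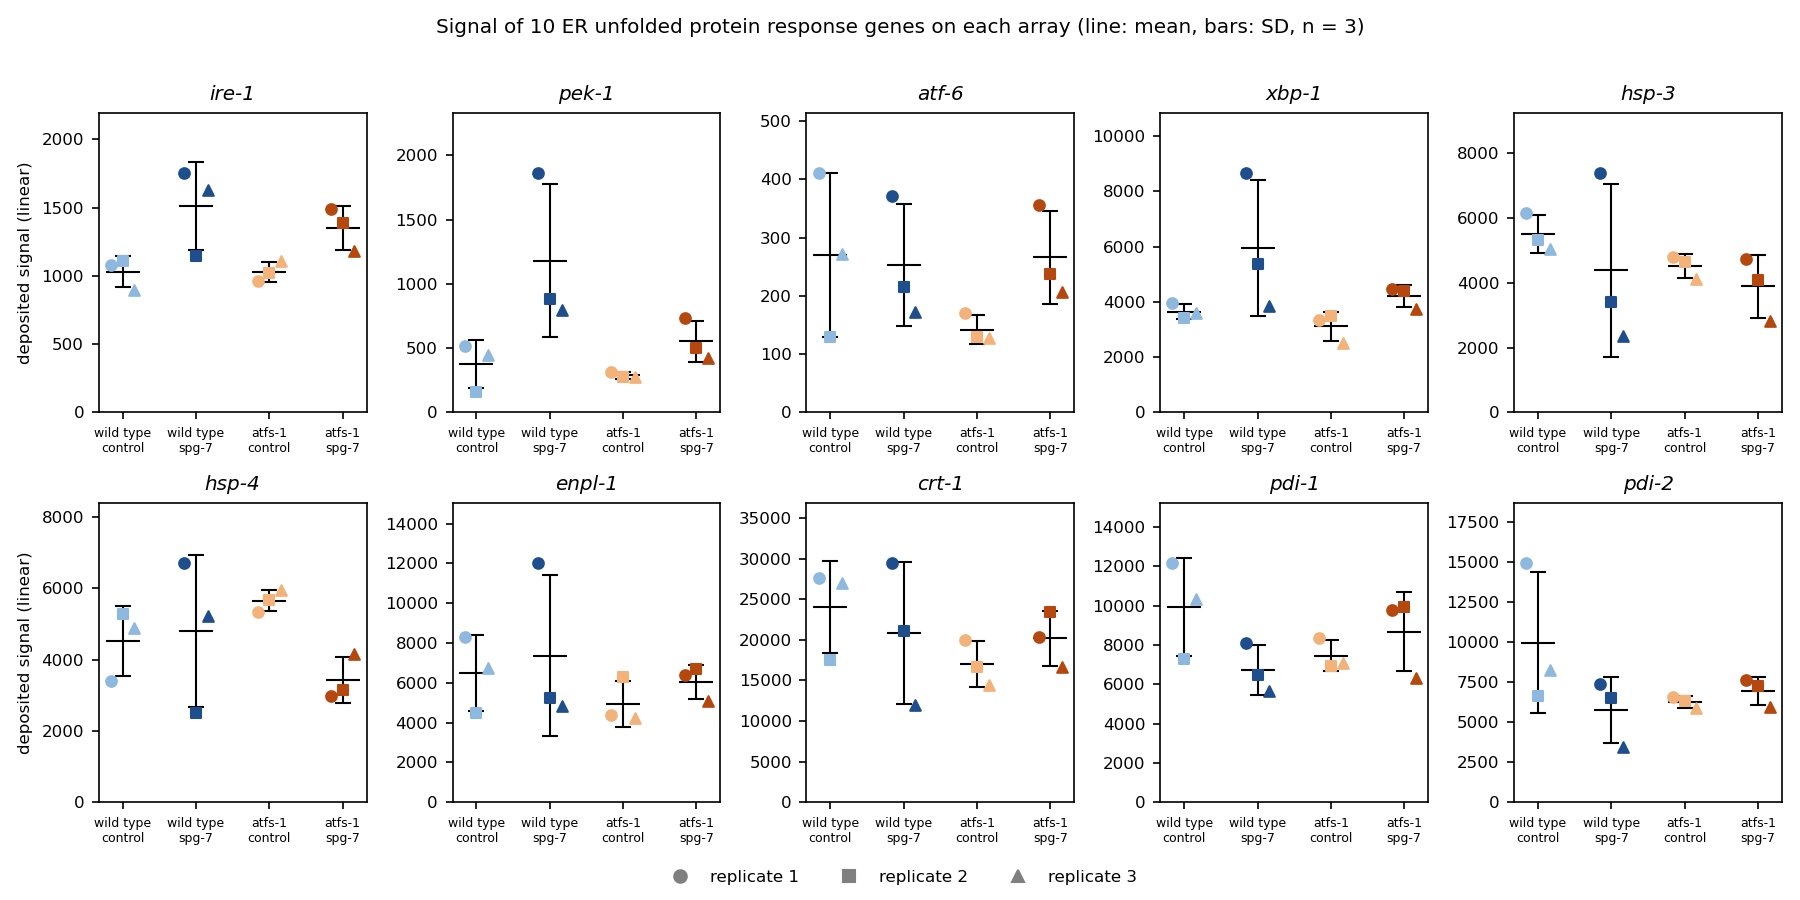
Deposited signal (linear scale) of the 10 genes on each of the 12 arrays, with points for arrays, a line for the mean and bars for SD (n = 3). The 3 pek-1 signals on spg-7 RNAi lie above the 3 on control RNAi in both genotypes, while hsp-4 in the mutant lies lower on spg-7 RNAi, at 2985 to 4155 against 5350 to 5949.

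The array signals shared a common scale, with a trimmed mean of 500.1 to 500.2 and a median of 112 to 159 on each array. Pearson's r between replicates was 0.867 to 0.920 in the wild-type groups and 0.922 to 0.946 in the mutant groups. The targeted gene spg-7 had higher signals on its RNAi, at 747, 454 and 1057 on the 3 wild-type control arrays against 13442, 22348 and 7278 on the arrays of the knockdown. Mutant signals were 385, 450 and 313 against 26208, 17698 and 9968. The knockdown therefore cannot be read from this probe set, and directions follow the labels. Neither hsp-6 nor hsp-60, for mitochondrial chaperones, was called in either genotype, with log2 differences of 0.44 and -0.49 in wild type and 0.23 and -0.33 in the mutant. The gene atfs-1 rose by 0.99 in wild type (limma adjusted p = 0.0469), a call held in 2 of 12 fits with 1 array left out (wild-type control replicate 1 or spg-7 RNAi replicate 2), and stood 0.44 higher in the mutant (adjusted p = 0.618). The RNA quality controls were mixed. For the actin control gene, the signal at the 3' end over that at the 5' end was 0.43 to 0.62 in log2 for wild-type controls and 0.82 to 0.85 after spg-7 RNAi. The mutant arrays gave 0.41 to 0.48 against 0.54 to 0.69. For the GAPDH control gene the ratio was instead -0.10 to 0.14 on wild-type controls and -0.25 to -0.09 after the knockdown, and -0.10 to 0.05 against -0.14 to -0.09 in the mutant. Wild-type control replicate 1 stood apart in germ line and yolk transcripts: the median log2 signal of 5 yolk protein genes was 6.46 there against 14.48 and 13.96 on the other control arrays, and that of 21 sperm genes was 11.53 against 14.30 and 14.42. The part of these differences in the results below was not tested.

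Among the sensors, pek-1 differed most. Its signals in wild type were 520, 160.3 and 447 on control RNAi against 1864, 884 and 793 on spg-7 RNAi. In the mutant they were 315, 273 and 272 on control RNAi against 732, 503 and 423 on spg-7 RNAi. Every spg-7 RNAi array lay above every control array of its genotype, the highest being wild-type replicate 1. The log2 difference was 1.71 ± 0.45 (SE) in wild type, or 3.27-fold, which missed the threshold (limma adjusted p = 0.053), and 0.91 ± 0.45 in the mutant, or 1.88-fold (adjusted p = 0.558). Averaged over genotypes pek-1 rose by 1.31 ± 0.32 with a 95% interval of 0.61 to 2.01 (limma adjusted p = 0.0308), the 1 member called among 10, where 7.13% of all genes tested were called and 4.97% were called higher. The response in the mutant was smaller by 0.80 ± 0.64 in log2, a difference that was not called (adjusted p = 0.909, with an interval of 0.218-fold to 1.51-fold).

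A dimmer probe set for pek-1 gave the same order of the arrays by treatment. It read 329, 173 and 408 on control RNAi against 973, 557 and 509 on spg-7 RNAi in wild type, and 330.4, 311 and 203 against 445, 596 and 489 in the mutant. Tested with each probe set on its own it rose by 1.03 over both genotypes (limma adjusted p = 0.0366). The brighter probe set is of type s and the dimmer of type x, which can bind transcripts of more than 1 gene. The averaged pek-1 call was lost when single arrays were left out: wild-type spg-7 RNAi replicate 1 or 2, mutant control replicate 1, 2 or 3, or mutant spg-7 RNAi replicate 1 or 2. Over the 12 fits with 1 array left out its log2 difference was 1.05 to 1.47 with adjusted p values of 0.0105 to 0.0866. In the wild-type response pek-1 was instead called when wild-type control replicate 1 was left out (2.03, adjusted p = 0.0219), or replicate 3 of wild type on spg-7 RNAi (1.94, adjusted p = 0.0484).

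The kinase and endonuclease gene ire-1 had signals of 1082, 1107 and 898 on control RNAi against 1754, 1143 and 1627 on spg-7 RNAi in wild type. In the mutant they were 961, 1021 and 1109 on control RNAi against 1489, 1384 and 1178 on spg-7 RNAi. The treatments did not overlap in either genotype, although wild-type replicate 2 on spg-7 RNAi was close to the controls. The log2 difference was 0.53 ± 0.22 in wild type (limma adjusted p = 0.195), 0.39 ± 0.22 in the mutant (adjusted p = 0.612) and 0.46 ± 0.15 over both (adjusted p = 0.0994, interval 0.12 to 0.80). A second probe set, also without overlap in either genotype, read 465 to 505 against 665 to 745 in wild type and 383 to 471 against 491 to 1219 in the mutant. Its averaged difference was 0.67 ± 0.21 (adjusted p = 0.0863).

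The third sensor gene, atf-6, was dim and variable in wild type, at 411, 129 and 271 on control RNAi against 371, 215 and 172 on spg-7 RNAi. Mutant arrays read 170.1, 129 and 128 on control RNAi against 356, 237 and 206 on spg-7 RNAi. Wild-type signals overlapped throughout and mutant signals did not overlap. The log2 differences were -0.02 ± 0.44 in wild type (limma adjusted p = 0.985) and 0.88 ± 0.44 in the mutant (adjusted p = 0.559), and they differed by 0.90 with an interval of -0.45 to 2.25. A second atf-6 probe set was too dim for the filter, with group means of 51.6 to 82.6.

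The transcription factor gene xbp-1, the substrate of IRE-1, read 3947, 3396 and 3601 on control RNAi against 8667, 5357 and 3833 on spg-7 RNAi in wild type. The mutant signals were 3339, 3497 and 2522 against 4467, 4377 and 3741. Wild-type spg-7 RNAi replicate 3 was inside the range of the controls, whereas the mutant treatments did not overlap. The log2 difference was 0.63 ± 0.27 in wild type (limma adjusted p = 0.221), 0.44 ± 0.27 in the mutant (adjusted p = 0.649) and 0.53 ± 0.19 over both (adjusted p = 0.121, interval 0.12 to 0.95). Its dimmer probe set read 2028, 1644 and 1959 against 5125, 2535 and 2699 in wild type and 1556, 1747 and 1874 against 2561, 2618 and 2154 in the mutant. There the treatments did not overlap in either genotype, and the averaged difference was 0.65 ± 0.18 (adjusted p = 0.0577). The brighter probe set of xbp-1 passed the threshold over both genotypes once replicate 3 of wild type on spg-7 RNAi was left out, at 0.67 (adjusted p = 0.0273).

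**Figure D2:**
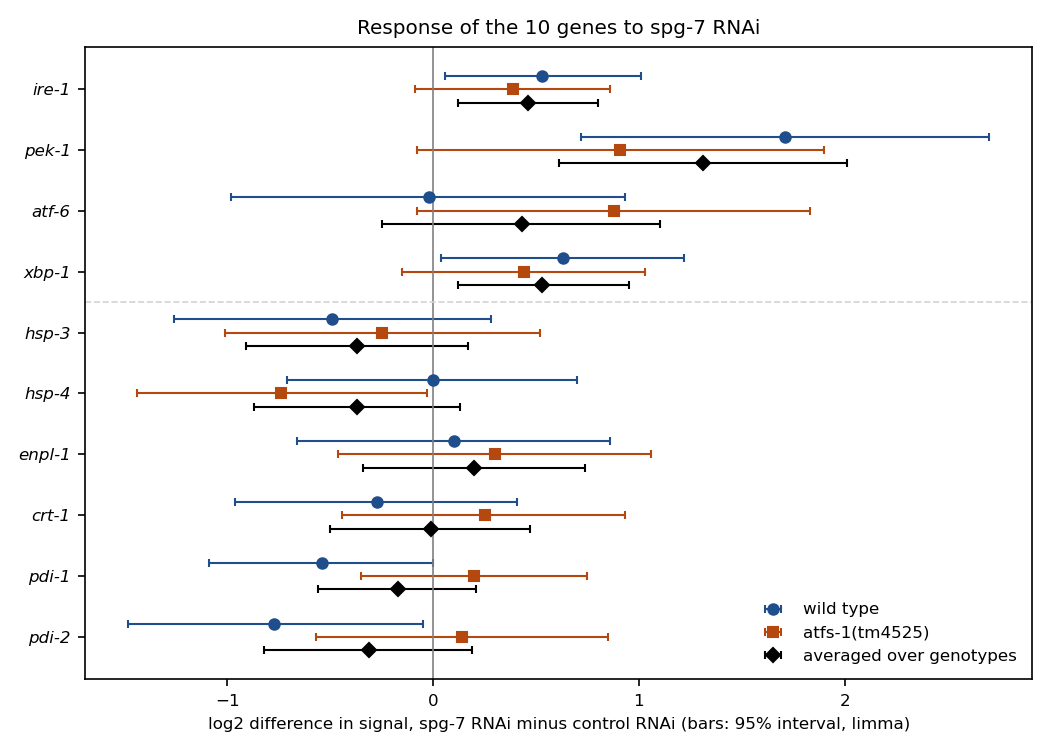
Log2 difference in signal between spg-7 RNAi and control RNAi for the 10 genes in wild type, in the mutant and averaged over genotypes, with 95% intervals from limma (12 arrays). Averaged over genotypes, the intervals of ire-1, pek-1 and xbp-1 lie above 0, and those of the other 7 genes include 0.

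The brightest probe sets of the chaperone genes did not show this order. The BiP gene hsp-4 read 3413, 5292 and 4885 on control RNAi against 6714, 2511 and 5211 on spg-7 RNAi in wild type. In the mutant it read 5350, 5672 and 5949 on control RNAi against 2985, 3144 and 4155 on spg-7 RNAi. The wild-type spg-7 RNAi arrays held both the highest and the lowest signal of the 12, while in the mutant every spg-7 RNAi array lay below every control array. The log2 difference in wild type was -0.00 ± 0.32 with an interval of -0.71 to 0.70 (limma adjusted p = 0.998), which leaves room for a 1.63-fold increase or decrease. In the mutant it was -0.74 ± 0.32 (adjusted p = 0.503, interval -1.44 to -0.03), and the difference between the genotypes' responses was -0.73 ± 0.46 (adjusted p = 0.872).

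The other BiP gene, hsp-3, read 6148, 5319 and 5041 on control RNAi against 7393, 3406 and 2349 on spg-7 RNAi in wild type. In the mutant it read 4796, 4652 and 4104 against 4745, 4089 and 2833. The treatments overlapped in both genotypes, and the SD on wild-type spg-7 RNAi, 2660, was more than the difference between the means of 5503 and 4383. The log2 difference was -0.49 ± 0.35 in wild type (limma adjusted p = 0.486) and -0.25 ± 0.35 in the mutant (adjusted p = 0.807). Both BiP genes are measured through probe sets of type s, so signal from one of these close relatives on the probe set of the other cannot be told apart here.

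The GRP94 homologue enpl-1 encodes an ER chaperone of the HSP90 family. It read 8291, 4472 and 6721 against 12026, 5248 and 4837 in wild type and 4363, 6285 and 4214 against 6371, 6684 and 5077 in the mutant. The treatments overlapped in both genotypes, with log2 differences of 0.10 ± 0.35 (limma adjusted p = 0.917) and 0.30 ± 0.35 (adjusted p = 0.768). A dimmer enpl-1 probe set gave an averaged difference of the other sign, -0.13 ± 0.33 against 0.20 ± 0.25.

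The calreticulin gene crt-1 encodes a calcium-binding lectin chaperone. Its signals were 27668, 17524 and 27015 against 29480, 21048 and 11953 in wild type and 19997, 16658 and 14392 against 20413, 23450 and 16681 in the mutant. Over both genotypes the log2 difference was -0.01 ± 0.22 with an interval of -0.50 to 0.47 (limma adjusted p = 0.98), or 0.707-fold to 1.39-fold.

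The protein disulfide isomerase genes pdi-1 and pdi-2 encode enzymes that form and rearrange disulfide bonds in the ER. The gene pdi-1 read 12181, 7273 and 10346 against 8095, 6463 and 5642 in wild type and 8361, 6935 and 7062 against 9766, 9942 and 6346 in the mutant. The gene pdi-2 read 14974, 6655 and 8294 against 7394, 6526 and 3470 in wild type and 6596, 6349 and 5869 against 7627, 7260 and 5940 in the mutant. For both genes the wild-type means were lower on spg-7 RNAi and the mutant means higher, with overlap between the treatments in each genotype. The log2 difference of pdi-1 was -0.54 ± 0.25 in wild type (limma adjusted p = 0.251) and 0.20 ± 0.25 in the mutant (adjusted p = 0.782). That of pdi-2 was -0.77 ± 0.33 (adjusted p = 0.216) and 0.14 ± 0.33 (adjusted p = 0.88), and its responses differed by 0.91 ± 0.46 (adjusted p = 0.816). A dimmer pdi-2 probe set gave an averaged difference of 0.15 ± 0.27 against -0.31 ± 0.23 for the brighter one. In the mutant it read 422, 512 and 620 against 639, 806 and 734, so there the treatments did not overlap (0.50 ± 0.38, limma adjusted p = 0.716), while in wild type they did.

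**Figure D3:**
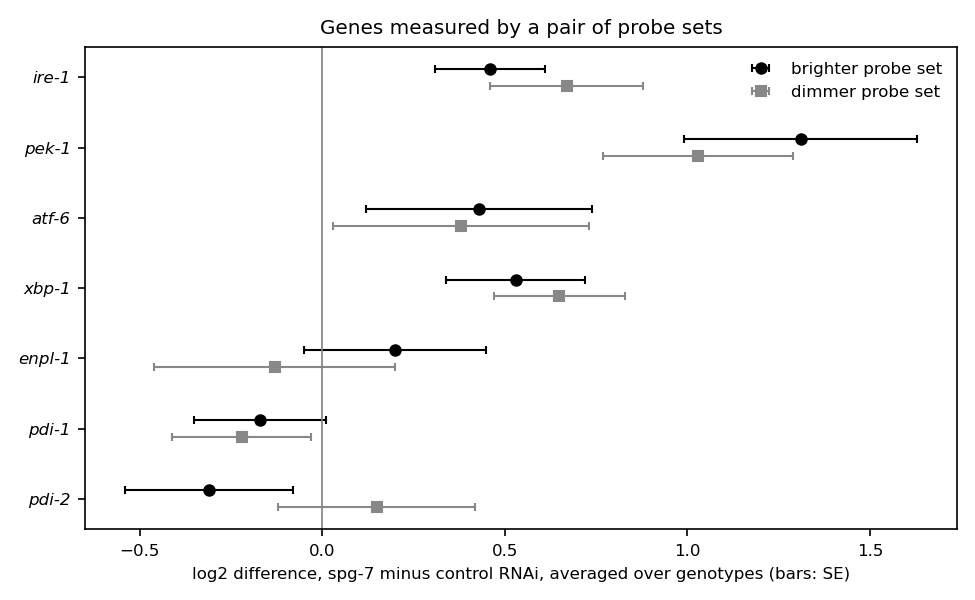
Averaged log2 difference between spg-7 RNAi and control RNAi, with SE, for the 7 genes measured by a pair of probe sets. The pairs for ire-1, pek-1, atf-6, xbp-1 and pdi-1 have the same sign, and those for enpl-1 and pdi-2 have opposite signs.

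The sensor group and the chaperone group were then set side by side. Averaged over genotypes, all 4 differences of the sensors and xbp-1 were positive with a median of 0.50, and 1 of 6 chaperone and enzyme differences was positive with a median of -0.24. Over all genes tested the median was -0.05 and 44.8% were positive. Under quantile normalisation and under centring on the array median the sensor group kept 4 of 4 positive, and 2 of the 6 in the chaperone group were positive. In wild type alone the medians were 0.58 and -0.38, with 3 of 4 positive and 1 of 6 positive. In the mutant alone they were 0.66 and 0.17, with 4 of 4 and 4 of 6 positive.

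Calls and separated groups were then read against the background of all genes. No member was called in wild type, where 4.73% of all genes were, and none in the mutant, where 1.17% were. At an unadjusted p under 0.05 the limma fit gave 4 members in wild type (ire-1, pek-1, xbp-1 and pdi-2), against 20.1% of all genes, and 1 in the mutant (hsp-4), against 9.47%. Over both genotypes it gave 3 (ire-1, pek-1 and xbp-1), against 22.5%. Signals on spg-7 RNAi lay above the controls without overlap for 2 members in wild type (9.99% of all genes) and for 4 in the mutant (13.1%), and below them for none in wild type (8.48%) and for 1 in the mutant (12.7%). In both genotypes at once this held for ire-1 and pek-1 upward, against 4.96% of all genes, and for no member downward, against 2.30%. The wild-type and the mutant response compare different arrays, but their limma tests share an estimate of spread from all arrays and are not independent. The averaged response is made from both.

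The mutation itself was compared on each RNAi. On control RNAi no member was called, and none of the 10385 genes was (0.0%), while 10.7% of genes and 0 members had an unadjusted p under 0.05 from limma. There hsp-4 lay higher in the mutant without overlap (11.8% of all genes did), with means of 5657 ± 299.8 against 4530 ± 988 (SD, n = 3) and a log2 difference of 0.34 ± 0.32, mutant minus wild type (limma adjusted p = 0.814). The genes hsp-3 and pdi-2 lay lower without overlap (5.79% of all genes did), at -0.28 ± 0.35 and -0.58 ± 0.33 (adjusted p = 0.895 and 0.561). On spg-7 RNAi no member was called, against 0.0963% of all genes (0.00963% higher and 0.0867% lower), and 1 member had an unadjusted p under 0.05, against 15.4%. This was pek-1, which lay lower in the mutant without overlap (7.29% of all genes did), and no member lay higher without overlap (15.7%). Its means were 553 ± 161 in the mutant and 1180 ± 594 in wild type (SD, n = 3), a log2 difference of -1.02 ± 0.45 (limma adjusted p = 0.307, interval -2.01 to -0.04). The dimmer pek-1 probe set overlapped between the genotypes there, at -0.36 ± 0.37 (adjusted p = 0.667). Averaged over RNAi all 10 members had negative differences, -0.62 to -0.02, of which none was called and 0.944% of all genes were. With quantile normalisation 2 of the 10 turned positive. No member's response to spg-7 RNAi differed by a called amount between the genotypes, where 0 of 10385 genes did (0.0%) and 6.23% of genes and 0 members had an unadjusted p under 0.05.

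Replicates of a group differed in germ line transcripts, and most members were lowest in their group on the array with the most of these. For wild type, 18 oocyte and embryo markers had a median log2 signal of 8.92, 11.94 and 10.60 under control RNAi and of 8.57, 11.34 and 12.42 under spg-7 RNAi. For the mutant it was 10.55, 10.44 and 11.54 on control RNAi against 9.63, 8.67 and 11.27 on spg-7 RNAi. None of the 18 markers was listed at 0 on any array, and their summed signal ranged from 11322 to 90437, from 9439 to 122821, from 33225 to 64263 and from 9429 to 54813 in these 4 groups. The array with the most marker RNA in its group had the lowest signal of the group for 7, 8, 7 and 9 of the 10 members, against 39.9%, 48.0%, 38.8% and 37.7% of all genes. The gene hsp-4 was an exception in all 4 groups, and ire-1 in every group but the mutant on spg-7 RNAi. Wild-type spg-7 RNAi replicate 1, with the least marker RNA of its group, had the highest signal there for all 10 members (38.1% of all genes). In wild-type control replicate 1 the same held for 8 members (39.8% of all genes), but in the mutant groups the array with the least marker RNA was highest for 2 and 3 members (30.2% and 36.5%). The part of germ line RNA in the spread of these genes was not tested, but fits that took it into account were added after the data had been seen. With the marker level as a covariate, the wild-type response of pek-1 was 1.81 (limma adjusted p = 0.00275), that of xbp-1 0.69 (adjusted p = 0.0281) and that of pdi-2 -0.69 (adjusted p = 0.0463). Without both control replicate 1 and spg-7 RNAi replicate 3 of wild type, pek-1 was called at 2.26 (adjusted p = 0.0174) and xbp-1 at 0.96 (adjusted p = 0.0451) in wild type. Over all genes these fits called more in wild type, but not in every list: without both arrays the abu count was 2 instead of 5. In wild type the covariate fit called 1334 of 10385 genes and the fit without both arrays 1227, against 491 without these changes.

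**Figure D4:**
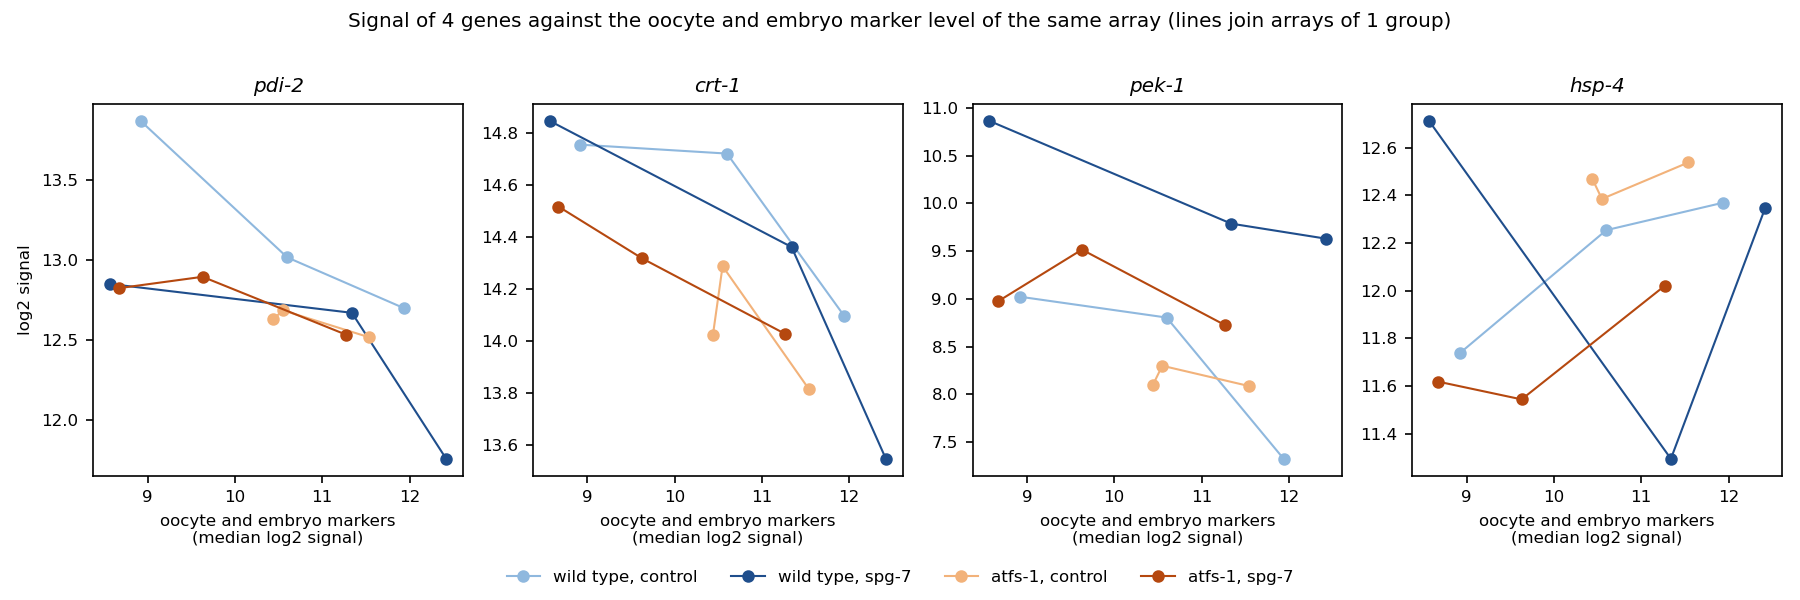
Log2 signal of pdi-2, crt-1, pek-1 and hsp-4 against the median log2 signal of 18 oocyte and embryo markers on the same array, with 1 line for each group of 3 arrays. For crt-1 the array with the highest marker level is the lowest of its group in all 4 groups, and for hsp-4 it is in none.

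Other parts of the ER machinery were followed through lists of genes. Proteins enter the ER through the SEC-61 channel with the help of the translocon-associated TRAP proteins. Of 18 genes for translocation and signal peptide processing, 5 fell upon spg-7 RNAi in wild type, against 1.43% of all genes called lower. None was called higher, against 3.29% of all genes. The list's median was -0.36, while all genes had a median of -0.04. The TRAP subunit gene trap-3 read 6009, 5258 and 5820 on control RNAi against 2109, 2270 and 3242 on spg-7 RNAi, a log2 difference of -1.19 ± 0.22 (limma adjusted p = 0.0122). The channel subunit gene sec-61.B fell by 1.41 (adjusted p = 0.0447) and trap-2 fell by 1.19 (adjusted p = 0.0328), but these calls held in 3 and 6 of 12 fits with 1 array left out, against 11 for trap-3. In the mutant trap-3 read 4464, 3848 and 4927 against 4160, 4329 and 2942, and none of the 18 genes was called, the list's median being -0.15. Over both genotypes 3 of the 18 fell, trap-3 by 0.71 (adjusted p = 0.0212), trap-1 by 0.65 (adjusted p = 0.0141) and sec-61.A by 0.50 (adjusted p = 0.0277), against 2.16% of all genes called lower. The averaged calls held in 9, 12 and 5 of 12 such fits for trap-3, trap-1 and sec-61.A. The response of trap-2 differed between the genotypes by 1.21 ± 0.39, which was not called (adjusted p = 0.714). The count of 5 in wild type was 2 without either the first or the second wild-type array on spg-7 RNAi, wild-type control replicate 3, mutant control replicate 2 or mutant spg-7 RNAi replicate 1, and 3 without wild-type control replicate 1 or mutant control replicate 1. It was 4 without both control replicate 1 and spg-7 RNAi replicate 3 of wild type, and was 0 when wild type was fitted alone. The count of 3 over both genotypes fell to 1 without mutant control replicate 1 and under centring on the array median.

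The abu genes are named for their induction in worms whose ER unfolded protein response is blocked. Of 10 tested, 5 fell upon spg-7 RNAi in wild type, against 1.43% of all genes called lower. All 10 had negative differences, and the list's median was -1.77 against -0.04 for all genes. The gene abu-15 read 11038, 9351 and 7881 on control RNAi against 3873, 2399 and 1641 on spg-7 RNAi, a log2 difference of -1.91 ± 0.40 (limma adjusted p = 0.021). The gene abu-11 fell by 1.95 (adjusted p = 0.0185) and abu-8 fell by 1.81 (adjusted p = 0.0195). In the mutant none was called, the median was -0.33 and 3 of 10 were positive. Over both genotypes 5 of 10 fell, against 2.16% of all genes, abu-15 by 1.44 (adjusted p = 0.0109). These genes resemble each other and abu-15 and abu-8 are read through probe sets of type x, so their signals may not be independent. The wild-type count was 1 without wild-type spg-7 RNAi replicate 2, 2 without wild-type control replicate 3, 2 without both control replicate 1 and spg-7 RNAi replicate 3 of wild type, and 0 when wild type was fitted alone. Muscle markers were followed beside the translocation and abu lists, and 1 of 12 had a positive difference in wild type, with a median of -0.54, and 5 of 12 in the mutant, with a median of -0.09. All 12 differences between the responses were positive, none of them called. The summed signal of the 12 markers ranged from 114203 to 172738 on wild-type controls against 77700 to 133807 on spg-7 RNAi, and none was listed at 0. The part of muscle RNA in the falls of these lists was not tested.

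Other ER lists held few calls. None of 19 further chaperone and folding enzyme genes was called in either genotype. The list medians were -0.23 in wild type (4 of 19 positive) and 0.37 in the mutant (13 of 19 positive). The peptidyl-prolyl isomerase gene fkb-5 stood at -1.75 ± 0.59 in wild type (limma adjusted p = 0.123) and 1.11 ± 0.59 in the mutant (adjusted p = 0.594). The largest mutant difference of the list was that of fkb-7, at 1.95 against -0.47 in wild type. Among 19 genes for ER-associated degradation, which returns misfolded proteins to the cytosol for destruction, 1 was called over both genotypes. That is close to the share of all genes called higher there, 4.97%. This gene, npl-4.2, rose by 0.49 (limma adjusted p = 0.0474), through a probe set of type x, and was called in 1 of the 12 fits with 1 array left out. Of 19 genes for traffic from the ER to the Golgi, tfg-1, for a protein of ER exit sites, fell by 1.22 in wild type (limma adjusted p = 0.0118) and by 0.85 over both genotypes (adjusted p = 0.00859). It was the 1 gene of this list called, against 1.43% of all genes called lower in wild type and 2.16% over both genotypes. It read 1242, 1196 and 1545 on control RNAi against 518, 576 and 603 on spg-7 RNAi in wild type. The wild-type call of tfg-1 was lost without wild-type control replicate 3 and when wild type was fitted alone. None of 5 genes of the PERK branch and the integrated stress response other than pek-1 was called, with atf-4, a transcription factor gene of that branch, at -0.40 ± 0.33 in wild type (adjusted p = 0.564).

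**Figure D5:**
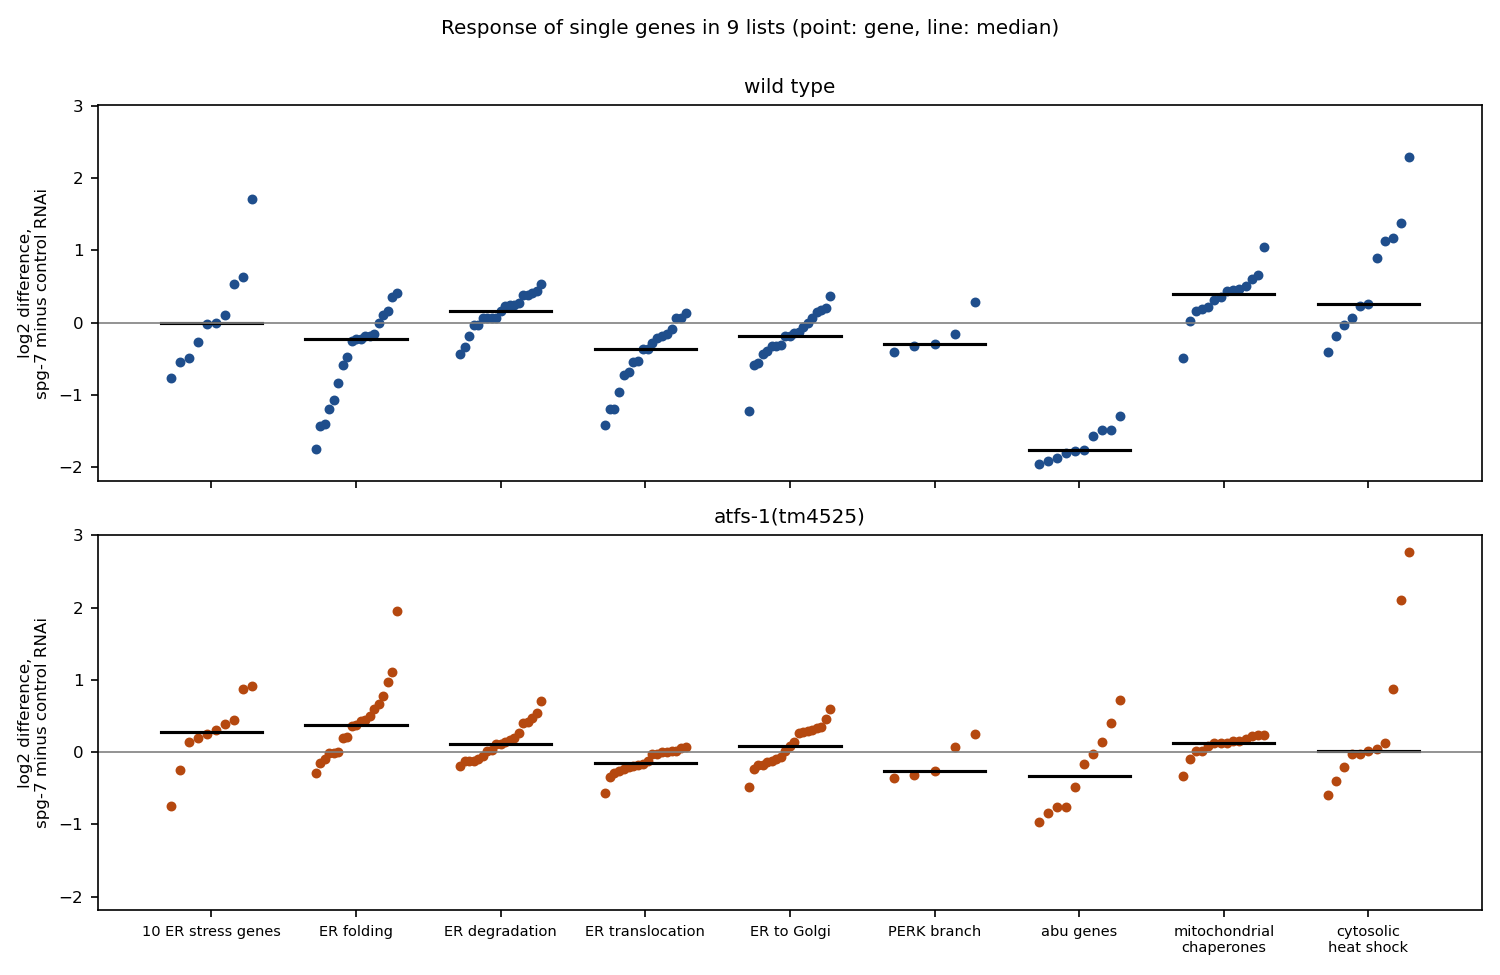
Log2 difference between spg-7 RNAi and control RNAi for single genes (points) of 9 lists in wild type and in the mutant, with the median of each list as a line. The 10 abu genes all lie below 0 in wild type with a median of -1.77, and the 10 ER stress genes have a median of -0.01 in wild type and 0.27 in the mutant.

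Mitochondrial and cytosolic chaperone genes were set beside the ER genes. Of 14 genes for mitochondrial chaperones and proteases, 13 had positive differences in wild type with a median of 0.39, and 12 in the mutant with a median of 0.13, but none was called. The gene with the largest difference, D2030.2, stood at 1.05 ± 0.28 in wild type (limma adjusted p = 0.0588). None of 11 cytosolic heat shock genes was called, with medians of 0.26 in wild type (8 of 11 positive) and 0.01 in the mutant (6 of 11 positive). The gene hsp-70 stood at 2.30 ± 0.79 in wild type (limma adjusted p = 0.127). The genes hsp-16.2 and hsp-16.41 stood at 1.38 and 1.13 in wild type and at 2.1 and 2.77 in the mutant. The 10 ER genes had medians of -0.01 and 0.27 in the same comparisons. The difference between these lists was not tested.

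Some tissue markers moved with the treatment as well. Of 11 intestine markers 4 rose over both genotypes, against 4.97% of all genes called higher, with a median of 0.69 against -0.05 for all genes. The ferritin gene ftn-1 rose by 2.18 in log2 (limma adjusted p = 0.00254) and the esterase gene ges-1 rose 2.64-fold (adjusted p = 0.00898). The calls of these 2 genes held in 12 of 12 fits with 1 array left out, while the count of 4 fell to 2 without mutant control replicate 1 or 2, the first or second mutant array on spg-7 RNAi, or the second such wild-type array. The summed signal of the 11 markers ranged from 50767 to 81633 on the control arrays and from 61700 to 124612 on the spg-7 RNAi arrays, and none was listed at 0. The muscle troponin gene mup-2 fell by 0.88 (limma adjusted p = 0.0076), 1 of 12 muscle markers called, against 2.16% of all genes called lower. The synaptic gene snb-1 rose by 0.80 (limma adjusted p = 0.00899), 1 of 10 neuron markers called, against 4.97% of all genes called higher. The neuron list as a whole had 5 of 10 positive and a median of -0.05, the same as all genes. No marker was called in either genotype or over both among the 5 yolk protein genes, 21 sperm genes or 18 oocyte and embryo genes, but their medians differed by genotype. The yolk list had a median of 1.95 in wild type (5 of 5 positive) and -1.19 in the mutant (1 of 5), and the oocyte and embryo list 0.25 (14 of 18) and -1.05 (0 of 18). The wild-type yolk value rests on control replicate 1. The median log2 signal of the yolk genes was 6.46 there against 14.48 and 13.96 on the other wild-type controls. It was 11.89, 14.61 and 14.47 on wild-type spg-7 RNAi. The 21 sperm genes all had higher signals in the mutant on either RNAi, with medians of 0.92 on control and 0.76 on spg-7 RNAi, none of them called. The value on control RNAi includes the low sperm signals of wild-type control replicate 1, with a median of 11.53 against 14.3 and 14.42. The part of tissue markers in the rise of pek-1 was not tested.

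The pattern of hsp-4 over the 12 arrays was compared with that of every other gene. Pearson's r of log2 signal with hsp-4 was between -0.41 (atf-6) and 0.23 (hsp-3) for the other 9 genes. The genes tested with the highest r were mrpl-2 (0.799), rab-33 (0.765), tsp-11 (0.752), hprt-1 (0.751) and ostb-1 (0.749), the last of which encodes a subunit of the oligosaccharyltransferase that glycosylates proteins in the ER. These values describe 12 arrays that fall into 4 groups and share their scaling. The genes with the highest r were picked from all genes tested, and the r that such picking gives by itself was not worked out.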

How the data were processed

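RNA of 12 whole-worm samples was measured on Affymetrix arrays. The deposited values are probe-set signal intensities on a linear scale, made by the authors with MAS5 per the submitters' processing notes, which give no version or settings; the trimmed mean of 500.1 to 500.2 was read from the values. Of 22625 probe sets, 77 were controls, 20766 had 1 gene name, 887 several and 895 none; symbols were updated through gene identifiers. Values were floored at 1 (0.509% of them) and taken to log2, and the lowest 40% of probe sets by mean were dropped (a signal of 76), leaving 13529. The brightest probe set with 1 gene name stood for each of 10385 genes. Positions are not given, since the sources used here name no genome build. Replicates are biological per the labels.

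A model with a mean for each group was fitted to all arrays in R 4.3.3 by limma 3.58.1 with moderated variances that follow a trend (8 residual and a median of 3.71 prior degrees of freedom). The 7 comparisons were the response to spg-7 RNAi in each genotype, the difference between these, the mutant against wild type on each RNAi, and both main effects; p values were adjusted within each by Benjamini-Hochberg. Fits of each probe set on its own used the 13529. The fit was tested on simulated data. In 5 runs with changes placed in the wild-type response it called 12.8% of 2-fold, 62.7% of 4-fold and 86.4% of 8-fold changes. Most changes of 2-fold were therefore missed in these runs, and a gene that was not called may still have changed. The runs used independent normal noise and 200 changed genes in that comparison only, so recovery in the real data may differ.

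The members and the lists were chosen with earlier results of these data known. The genes named were the 10 members, hsp-6, hsp-60, spg-7 and atfs-1, up to 3 called members of a list with the largest change (or 2 where none was called), and the 5 genes most like hsp-4 over the arrays. Which of these were printed, and the genes whose calls are followed under other settings, was decided after their values were seen. Lists covered ER chaperones and folding enzymes, ER-associated degradation, translocation, the PERK branch, abu genes, ER to Golgi traffic, mitochondrial chaperones, heat shock and markers of 6 tissues or germ cells. Alternatives were quantile normalisation, median centring, 32 added before log2, no filter, a 60% filter, each probe set on its own, no variance trend, array weights, the replicate block, fits with only the compared groups and leaving out each array.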

Additional observations from a re-analysis of the deposited data

How the results depend on the processing

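Of 1603 values of the 10 genes under other settings, 1571 kept their side of the threshold, 25 gained a call, 7 lost one, none reversed with a call and 81 changed sign without one. In wild type, where 0 of 10 genes were called, 1 was called with arrays centred on their median or 32 added before log2, 2 with array weights, and 0 to 1 with 1 array left out. The labels number the replicates alike in every group. Of 18 same-numbered pairs of deviations 11 correlated above 0.1 (range -0.664 to 0.663). Differently numbered pairs did so less often (range -0.729 to 0.65). Whether the numbers pair the samples was not settled by these values, and the main fit took the samples as unpaired. With the replicate block 1 gene was called in wild type, pek-1 (limma adjusted p = 0.0277), and the count over both genotypes stayed at 1. Of the gene lists, the block called 1 heat shock gene and 1 mitochondrial chaperone or protease gene in wild type and 3 heat shock genes over both genotypes, each from 0, and lost the call of npl-4.2. In the mutant, with 0 called, array weights called 4 (hsp-4, ire-1, pek-1 and atf-6). Over both genotypes, with 1 called, centring called 2, array weights 4, and leaving out 1 array 0 to 2. Of the fits added after the data had been seen, leaving out both wild-type arrays called 2 in wild type and 2 over both genotypes. The marker covariate called 3 in wild type, 2 over both genotypes, 1 between genotypes on spg-7 RNAi (pek-1, -1.34) and 1 between genotypes over both RNAi (pek-1, -0.72). The estimation of array weights stopped before it converged, and the cause of these shifts was not tested.

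Over all genes, the 491 calls in wild type ranged from 84 (wild type fitted alone) to 1785 (array weights), and from 222 to 1039 with 1 array left out. The fits added after the data had been seen gave 1227 without both wild-type arrays and 1334 with the marker covariate. In the mutant the calls, 98 higher and 23 lower, ranged from 71 to 1532 and from 44 to 193, and over both genotypes 740 ranged from 526 to 2989 and from 369 to 1638. The difference between responses had 0 calls, at most 96 with array weights and 1 with 1 array left out. The mutant against wild type had 0 on control RNAi (519 with array weights), 10 on spg-7 RNAi (7 to 710, and 0 to 587 with 1 array left out) and 98 over both RNAi (1 with the replicate block, 1357 with array weights, and 0 to 645 with 1 array left out). Centring on the median moved the median of all genes from -0.04 to 0.08 in the wild-type response, from -0.02 to -0.15 and from 0.00 to -0.22 between genotypes on control and spg-7 RNAi, and from -0.03 to -0.21 over both. The number of arrays, 3 in a group, limits the precision.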
